A study of Mus musculus with 2 samples.

Results

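CTCF binding was examined at the 9 HoxC cluster genes of the mouse, Hoxc4, Hoxc5, Hoxc6, Hoxc8, Hoxc9, Hoxc10, Hoxc11, Hoxc12 and Hoxc13, out of 21755 annotated protein-coding genes. The genes were taken as a named cluster, and the region described was their span with 50 kb on each side, chr15:102871103-103086852 on mm10. Of the 65482 peaks in the authors' optimal list, 12 had their summit in this window, and all 12 are described, numbered 1 to 12 along the chromosome. The data came from chromatin immunoprecipitation and sequencing with an antibody to CTCF in kidney tissue of newborn B6NCrl mice, aged 0 days. There were 2 libraries in 1 group, numbered as biological replicates 1 and 2, with the same biosample and donor identifiers, so the spread between them may be technical. No treatment, mutant allele or second group was named, and sex was not collected. Differences between the HoxC window and other regions were not tested, and every value given beside the HoxC values is a description. The lists hold no read counts, so the depth behind each peak is unknown.

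Hox genes encode homeodomain transcription factors that give cells their position along the body axis, and their order on the chromosome follows the order of their expression domains, with Hoxc4 at the anterior end and Hoxc13 at the posterior end of this cluster. CTCF is a zinc-finger protein that binds a long, directional DNA motif and marks insulators and the anchors of chromatin loops, where motifs often point towards each other. In Hox clusters, CTCF sites are known as boundaries between active and silent chromatin. Paralogs of Hoxc10 and Hoxc11 are known from mouse genetics to be needed for the formation of the kidney.

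The sequences at the summits show how far each site departs from the motif of CTCF. A 19 bp matrix learned from optimal peaks on other chromosomes had the consensus TGGCCACCAGGGGGCGCTA. The best-scoring stretch within 100 bp of the summit is shown in capitals, 5′ to 3′ on the strand of the motif, with 5 flanking bases on each side in lower case, read from the GRCm38.p6 genome sequence (mm10). The 6 sites shown are the 4 with a match and 2 without, peaks 3 and 4, which scored 10.56 and 10.55. At these 2 the position given is that of the best-scoring stretch, and no motif match was called. Peaks 9 and 10, of lower signal, scored 10.86 and 10.28, also without a match, and are not shown.
Peak 2, reverse strand, motif at chr15:102943454-102943472: cgctcTGGCCAGCAGGGGTCATCCcgtcc
Peak 3, forward strand, motif at chr15:102966569-102966587: cgaggCAGCTGCTAGGTGGCGCTGttact
Peak 4, reverse strand, motif at chr15:102970932-102970950: cttgcTAATCTCCAGGCGGCGCTCtcgcg
Peak 5, forward strand, motif at chr15:102987590-102987608: acaagTGAACGCGAGGTGGCGCTGttgct
Peak 8, forward strand, motif at chr15:103013699-103013717: ccgagTCGGCACCAGGTGTCGCTGtgagc
Peak 12, forward strand, motif at chr15:103077840-103077858: tccaaTAGGCAGCAGGGGGCCCTGtctgc

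The 3 highest HoxC peaks lay in the central to anterior part of the cluster, at Hoxc10 (peak 3), between Hoxc9 and Hoxc8 (peak 5) and at the start of the short Hoxc5 transcript (peak 8). Their signal stood at percentiles 94.3, 95.8 and 84.5 of the optimal list, where a higher percentile means a higher signal value from the authors' peak caller. Peak 2, beside Hotair, followed at percentile 58.9, and the other 8 peaks were below percentile 50. The median over the 12 peaks was 30.4, with a range of 0.980 to 95.8, whereas 50 is the median of the whole list by construction. The median was 46.6 in the upper-signal list of replicate 1 alone, 38.3 in that of replicate 2 alone and 54.7 over the 7 peaks of the conservative list. In the optimal list the window thus held 3 peaks above percentile 80 and 8 below percentile 50. The medians in the other lists were higher, but those lists hold other peaks, so the medians are not over the same sites. The conservative list leaves out peaks 1, 6, 9, 10 and 11. These stood at percentiles 11.7, 5.47, 0.980, 12.9 and 4.61 of the optimal list, the lowest of the window.

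**Figure D1:**
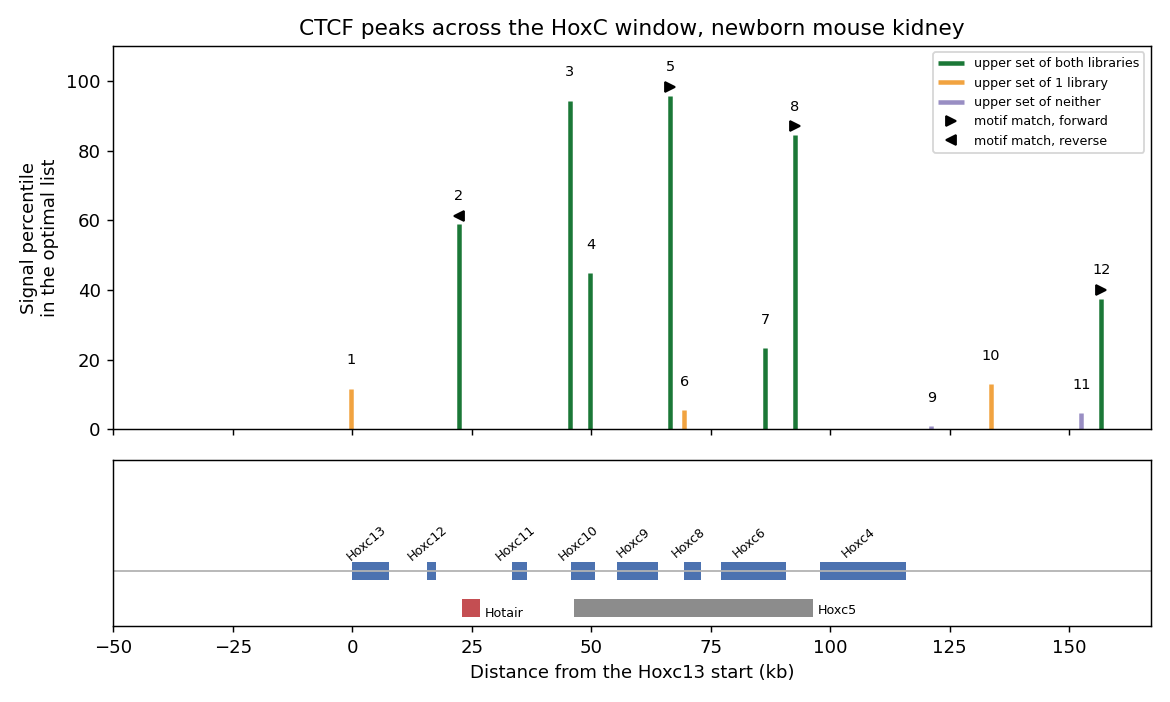
Signal percentile in the optimal list (y axis) of the 12 CTCF peaks against distance from the Hoxc13 start in kb (x axis), with the annotated genes drawn to scale below; colour gives the number of libraries whose upper set holds the peak, and triangles mark motif matches and their direction. Peaks 3, 5 and 8 stand at percentiles 94.3, 95.8 and 84.5, and the 4 peaks right of Hoxc4 stand between 0.980 and 37.6.

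Of the 12 peaks, 7 lay within the 115.75 kb from the Hoxc13 start to the Hoxc4 end (chr15:102921103-103036852), 1 lay just left of Hoxc13 and 4 lay right of Hoxc4, before Smug1. No summit fell in the 22.7 kb between peaks 1 and 2, which holds Hoxc13 and Hoxc12, or in the 23.1 kb between peaks 2 and 3, which holds Hotair and Hoxc11. Between neighbouring peaks of the window, the widest gap was 28.6 kb, from peak 8 to peak 9, and it holds all of Hoxc4. Beyond the window, the nearest optimal summit on the left was 63.5 kb from its edge, at percentile 81.1, and the nearest on the right was 5.86 kb away, at percentile 34.5. The left 50 kb of the window therefore held a single peak, number 1, at 325 bp from the Hoxc13 start.

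At the posterior end, peak 1 (chr15:102920613-102920942, summit 102920778) was intergenic, 325 bp upstream of the only annotated transcription start site (TSS) of Hoxc13, a gene needed for hair and nail formation. Its percentile in the optimal list was 11.7, and among optimal peaks it was 25.9 in replicate 1 and 7.61 in replicate 2. It ranked 48682 in the list of replicate 1 and 86089 in that of replicate 2, where rank 1 is the highest signal of 300000 peaks. The summits also differed, since that of replicate 2 lay 145 bp from the optimal summit and that of replicate 1 lay 5 bp from it. The best motif stretch scored 0.37, so no sequence close to the consensus lay there.

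Peak 2 (chr15:102943413-102943531, summit 102943461) lay in intergenic sequence between Hoxc12 and Hoxc11, 601 bp past the 3′ end of Hotair, a long non-coding RNA transcribed from the opposite strand to the HoxC genes. It was 6704 bp from the Hoxc12 TSS and ranked 29852 in replicate 1 and 21850 in replicate 2. Its percentiles among optimal peaks were 54.1 in replicate 1 and 65.6 in replicate 2, so both libraries placed it in the upper part of the list. It was the narrowest of the 12 peaks, at 119 bp, and the only one with a motif match on the reverse strand.

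Peak 3 (chr15:102966444-102966736, summit 102966597) was intergenic, 199 bp upstream of the TSS of Hoxc10, which acts in patterning of the lumbar spine and hindlimb. The same summit lay 846 bp upstream of the first annotated start of Hoxc5, from which a transcript of 48.2 kb runs past Hoxc9, Hoxc8 and Hoxc6, so Hoxc10 and Hoxc5 share this peak. It ranked 1584 in replicate 1, 6413 in replicate 2 and 3756 in the optimal list. Percentiles among optimal peaks were 97.6 in replicate 1 and 89.9 in replicate 2. Peak 4 (chr15:102970777-102971106, summit 102970942) fell in the coding sequence of Hoxc10, in exon 2 of 2, which is also intronic to the long Hoxc5 transcript. It stood at percentile 44.9 of the optimal list, with 46.3 in replicate 1 and 39.5 in replicate 2. Peak 4 was the only one of the 12 with its summit in an exon.

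Peak 5 (chr15:102987466-102987738, summit 102987605), the highest of the window, lay between Hoxc9, which acts in thoracic motor neurons, and Hoxc8, which patterns thoracic vertebrae. It was 3002 bp upstream of the first Hoxc8 TSS, in an intron of the long Hoxc5 transcript. It ranked 3006 in replicate 1 and 3664 in replicate 2, and its percentiles among optimal peaks, 95.4 in replicate 1 and 94.2 in replicate 2, were the closest pair of the 4 highest peaks. Peak 6 (chr15:102990374-102990703, summit 102990539) lay nearer, 68 bp upstream of that Hoxc8 TSS, but stood at percentile 5.47. It ranked 86691 in replicate 1 and 53423 in replicate 2, with percentiles among optimal peaks of 2.42 and 23.5. The site at the Hoxc8 promoter was thus low, and the high site lay outside it.

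Peak 7 (chr15:103007306-103007635, summit 103007471) was in an intron of Hoxc6 and of the long Hoxc5 transcript, 2102 bp upstream of the third Hoxc6 TSS. It stood at percentile 23.2, and the libraries placed it apart, at 15.7 in replicate 1 and 37.8 in replicate 2 among optimal peaks. Peak 8 (chr15:103013584-103013816, summit 103013703) lay 112 bp upstream of the start of the short Hoxc5 transcript, between Hoxc6 and Hoxc4 and 1207 bp from the microRNA gene Mir615. It ranked 13489 in replicate 1 and 6646 in replicate 2, and its percentiles among optimal peaks were 79.3 in replicate 1 and 89.5 in replicate 2. Hoxc5 therefore had an optimal peak near each of its 2 annotated starts, at percentiles 94.3 and 84.5.

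The 4 intergenic peaks between Hoxc4 and Smug1 were peak 9 (chr15:103042100-103042429, summit 103042265), peak 10 (chr15:103054489-103054818, summit 103054654), peak 11 (chr15:103073438-103073767, summit 103073603) and peak 12 (chr15:103077686-103078015, summit 103077851). Their distances from the nearest Hoxc4 TSS were 7870, 20259, 39208 and 43456 bp, in the same order. Peak 12 was the highest of them, at percentile 37.6 of the optimal list, with ranks of 42651 in replicate 1 and 49908 in replicate 2. Peak 9 was the lowest of the window, at percentile 0.980, and the list of replicate 1 held no overlapping peak. Peaks 10 and 11 stood at percentiles 12.9 and 4.61, and the libraries ranked them in opposite order. Peak 10 ranked 71498 in replicate 1 and 46237 in replicate 2, whereas peak 11 ranked 66594 in replicate 1 and 127870 in replicate 2.

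**Figure D2:**
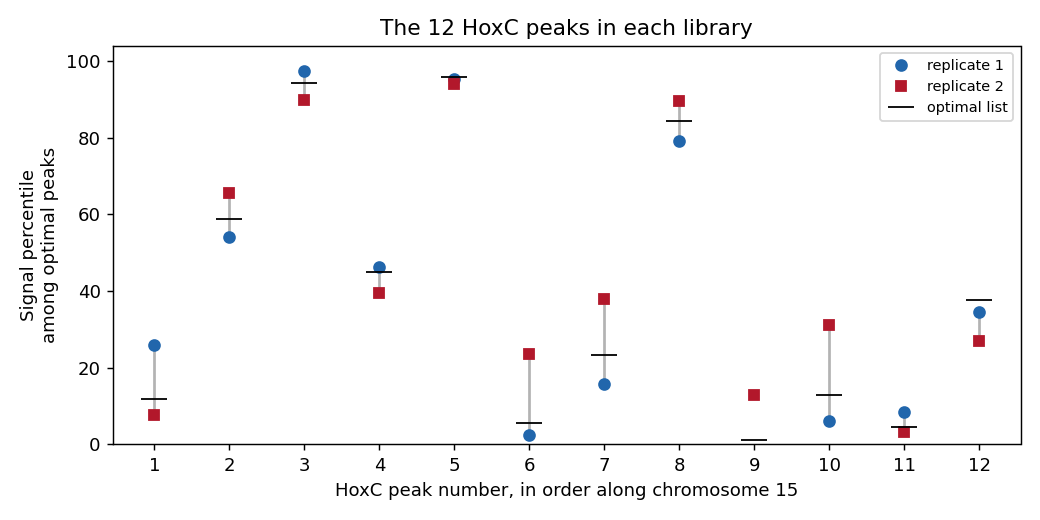
Signal percentile among optimal peaks (y axis) for each of the 12 HoxC peaks (x axis) in replicate 1 (circles) and replicate 2 (squares), with the percentile of the optimal list as a bar; a grey line joins the libraries. Peaks 3, 5 and 8 are at 79.3 or above in both libraries, and peak 9 has no value in replicate 1.

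The libraries were compared peak by peak through an upper set for each, cut to the length of the optimal list, 65482 peaks, by descending signal. Of the 12 HoxC peaks, 7 overlapped the upper set of both libraries, and 78.6% of all optimal peaks did so. Those 7 were peaks 2, 3, 4, 5, 7, 8 and 12, and they were also the 7 of 12 that overlapped the authors' conservative list, which holds 84.2% of all optimal peaks by the same overlap. Peak 1 was in the upper set of replicate 1 only, peaks 6 and 10 in that of replicate 2 only, and peaks 9 and 11 in neither. These 5 were the lowest of the 12 in signal, at percentiles 0.980 to 12.9 of the optimal list. An upper set is a cut by signal, and the shares of 78.6% and 84.2% were not adjusted for signal. Summits of both libraries lay within 10 bp of the optimal summit at 4 peaks, numbers 4, 5, 7 and 8. The share over all optimal peaks was not computed, so whether 4 of 12 is many or few is unknown. At 9 of the 12 peaks the deposited −log10 q-value was at the highest value of the list, 5.11, which 60069 optimal peaks shared, so it does not rank these peaks.

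The relaxed lists held more intervals in the window, with 81 peaks in the pooled list, 77 in that of replicate 1 and 68 in that of replicate 2. Those of high rank that the optimal list leaves out were few. Near Hoxc6, a peak with its summit at 103002372 ranked 47287 in replicate 1 and 58419 in the pooled list, and replicate 2 had no overlapping peak. Right of Hoxc4, a peak with its summit at 103064603 ranked 53376 in replicate 2, and replicate 1 had none. Between Hoxc9 and Hoxc8, a pooled peak with its summit at 102985724 ranked 64376. The highest peaks overlapping its interval ranked 71167 in replicate 1 and 74720 in replicate 2. The first and second of these were each listed in a single library.

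A promoter peak was counted where an optimal summit lay within 1000 bp of any annotated TSS of the gene, and 4 of the 9 HoxC genes had one, namely Hoxc13, Hoxc10, Hoxc8 and Hoxc5. Over all protein-coding genes the share was 39.4%. The same 4 genes were found within 500 bp of a TSS, against 32.1% of all genes, and within 1000 bp of the 5′ end of the gene only, against 31.3%. Within 2500 bp Hoxc6 was added through peak 7, making 5 of 9, against 49.9%. Among the 39 Hox genes of the 4 clusters, 12 had a promoter peak (30.8%), and outside HoxC the count was 8 of 30 (26.7%). In the conservative list 2 of the 9 HoxC genes, Hoxc10 and Hoxc5, had one, against 36.6% of all genes. The HoxC count of 4 was close to the share over all genes, and its members differed widely in signal. The promoter peaks stood at percentiles 94.3 (Hoxc10 and Hoxc5), 84.5 (Hoxc5), 11.7 (Hoxc13) and 5.47 (Hoxc8).

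Per peak, 4 of the 12 HoxC summits lay within 1000 bp of a TSS, numbers 1, 3, 6 and 8, and 16.6% of all optimal summits did. The window was drawn around a dense group of genes, and TSS density was not matched.

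The 5 HoxC genes without a promoter peak were Hoxc12, Hoxc11, Hoxc9, Hoxc6 and Hoxc4. The nearest optimal summit was 6704 bp from Hoxc12 (ENSMUSG00000050328.2), which is among the posterior genes of the cluster. It was 10966 bp from Hoxc11 (ENSMUSG00000001656.3), a gene active in hindlimb and sacral patterning, and this was the longest distance of the 9 genes. Hoxc9 (ENSMUSG00000036139.6) was 5497 bp from peak 4, and Hoxc6 (ENSMUSG00000001661.5), which acts in motor neurons at forelimb level, was 2102 bp from peak 7. Hoxc4 (ENSMUSG00000075394.4), the most anterior member, was 5231 bp from peak 8, at the neighbouring Hoxc5 promoter.

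In the relaxed lists the promoters without an optimal peak were not alike. Within 1000 bp of a Hoxc6 TSS, the highest peak ranked 79503 in replicate 1 and 68510 in replicate 2, below the 65482 peaks of an upper set. Hoxc6 has 3 starts, and these peaks need not lie at the same one, since the highest pooled rank there was 109459. At Hoxc9 the ranks were 73902 in replicate 1 and 99462 in replicate 2. At Hoxc11 they were 138273 in replicate 1 and 122108 in replicate 2, in the middle of the lists. The lowest were at Hoxc12, with 275633 in replicate 1 and 146782 in replicate 2, and at Hoxc4, with 264812 in replicate 1 and 255718 in replicate 2. Hoxc4 was thus near the bottom of the list in both libraries, and Hoxc12 in replicate 1. In the pooled list both stood in the middle, at rank 138687 for Hoxc4 and 149175 for Hoxc12.

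The promoters that had an optimal peak also spanned a wide range. Hoxc10 and Hoxc5, through their shared peak 3, ranked 1584 in replicate 1 and 6413 in replicate 2. Hoxc13 (ENSMUSG00000001655.6) and Hoxc8 (ENSMUSG00000001657.7) each entered an upper set in 1 library, Hoxc13 in replicate 1 and Hoxc8 in replicate 2. At Hoxc8, the rank of 86691 in replicate 1 was below the ranks of Hoxc6 and Hoxc9 in that library, which have no optimal promoter peak. In replicate 2, the rank of 86089 at Hoxc13 was likewise below that of Hoxc6.

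**Figure D3:**
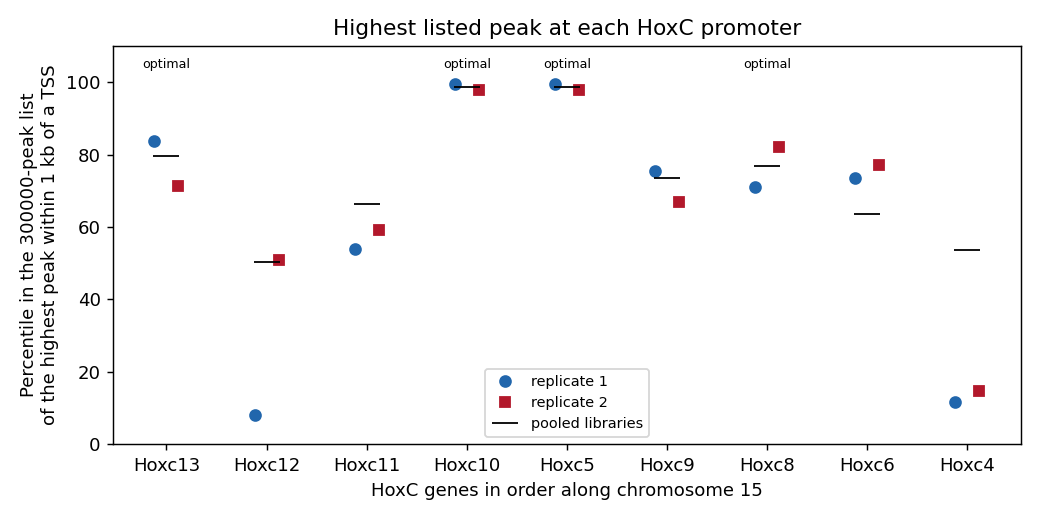
Percentile in each 300000-peak list (y axis) of the highest peak within 1000 bp of a TSS of each HoxC gene (x axis, in order along the chromosome), for replicate 1 (circles), replicate 2 (squares) and the pooled list (bars); the 4 genes with an optimal promoter peak are named so above the points. Hoxc10 and Hoxc5 share the same highest peak, at 99.5 in replicate 1 and 97.9 in replicate 2, and Hoxc4 is at 11.7 and 14.7.

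A motif match was called where the score, a log2 ratio of matrix to background, passed 12.29, a level exceeded at 1 in 10000 control positions. Of the 12 HoxC peaks, 4 had a match within 100 bp of the summit, numbers 2, 5, 8 and 12, against 67.5% of all optimal peaks. Over all optimal peaks the share was 36.5% in the lowest signal decile and 92.7% in the highest. With the deciles weighted as in the HoxC window the share over all optimal peaks was 61.2%. The share was 39.7% for all optimal peaks within 1000 bp of a protein-coding TSS and 73.0% for those farther away. In HoxC, peaks 1, 3, 6 and 8 lay within 1000 bp of a TSS, and the weighting did not take this into account. The median percentile was 71.7 for the 4 HoxC peaks with a match and 12.3 for the 8 without. All 4 centres of the matched stretches lay within 6 bp of the summit. With a matrix learned from all sequence, repeats included, 1 of the 12 HoxC peaks had a match, against 39.2% of all optimal peaks. With 12 peaks, and no test of the difference, the lower share in HoxC is a count of these sites only.

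Matches in HoxC were of middle to low score. Peak 2 scored 16.13, peak 12 scored 14.61, peak 8 scored 14.39 and peak 5 scored 13.03, where the median over all matched optimal peaks was 16.53. No HoxC peak passed 18.25, the level of 1 in 100000 control positions, and 18.3% of all optimal peaks did. Peak 5, the highest of the window in signal, had the lowest score of the 4, and only 6.76% of matched optimal peaks scored no higher. Among all optimal peaks of its signal decile, matched or not, 9.77% scored as low, and the decile median was 18.06.

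Peak 3 stood in the same decile and had no match, since its best stretch scored 10.56, centred 19 bp from the summit, and 3.70% of the decile scored as low. For peak 8, in the next decile, 23.9% scored as low, with a decile median of 17.05. For peak 2 the share was 66.2% and the decile median was 14.58, so its score was above the middle of its decile. The 3 highest HoxC peaks all scored below the median of their decile. Peaks 3 and 8 lay within 1000 bp of a TSS, and the decile values were not split by distance to a TSS.

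**Figure D4:**
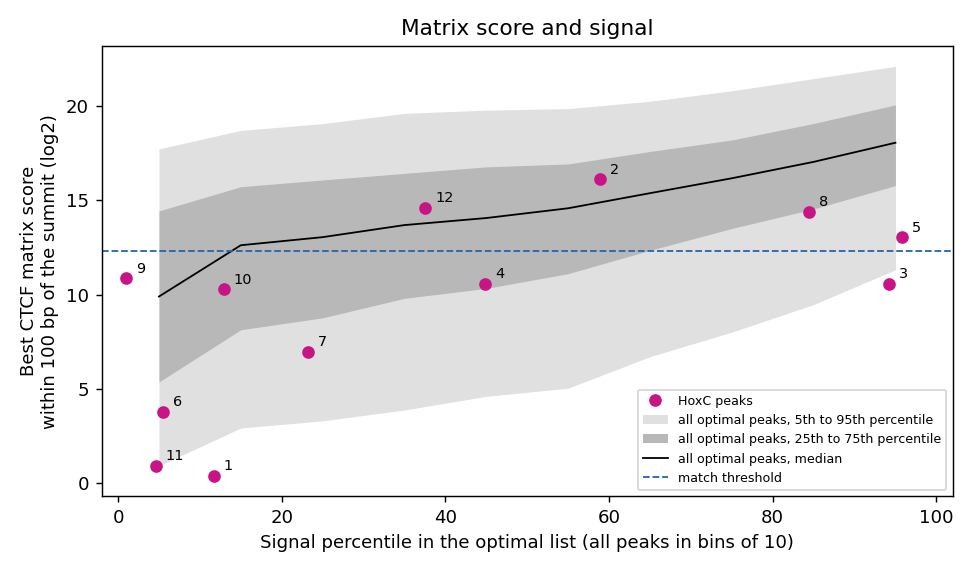
Best CTCF matrix score within 100 bp of the summit (y axis, log2) against signal percentile (x axis) for the 12 HoxC peaks, numbered, over the median, middle and outer ranges of all optimal peaks in bins of signal; the dashed line is the match threshold of 12.29. Peaks 3 and 5 lie far right, at scores of 10.56 and 13.03, under the median of 18.06 of their bin.

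Some of the bases that lowered the scores recurred between sites and others did not. Substitutions are written as the consensus base, the position counted from 1 at the 5′ end of the motif, and the base at the site. At peak 3, C5T lowered the score by 7.43 and A6G by 3.63. At peak 5, A6G cost 3.63, C4A cost 3.05 and C8G cost 3.03. Peak 8 departed from the consensus by C4G, at a cost of 4.06, which peak 12 shared, and by G14T, at a cost of 3.74, which peak 2 shared. At peak 4, in the Hoxc10 exon, G12C cost 5.37 and C4T cost 3.88, and the score of 10.55 missed the threshold. These losses lay in the 5′ part of the motif at peaks 3 and 5, while their 3′ parts were the same.

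Peaks 3 and 5 had 19 of the 29 printed bases in common, and 13 of these formed 1 unbroken run, AGGTGGCGCTGTT, which covers the 3′ part of the motif and 2 bases past it. This run was chosen after the sequences had been seen. Searched on both strands within 100 bp of summits, it was found at 140 of 65470 optimal peaks (0.214%) and at 2 of the same number of windows 2000 bp away (0.00305%). Among the 12 HoxC peaks it was found at 2, peaks 3 and 5 themselves. That count was fixed by the choice of the run and cannot be set against the other shares. The run overlaps the CTCF motif itself. Of those 140 peaks, 87.9% had a motif match, and their median signal percentile was 67.4.

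By direction, 3 of the 4 matched HoxC peaks, numbers 5, 8 and 12, had the motif on the forward strand, the strand of the 9 HoxC genes, and peak 2 had it on the reverse strand. Over all matched optimal peaks 49.8% were on the forward strand. Read along the chromosome, the match at peak 2 pointed towards the posterior end of the cluster, at Hoxc12 and Hoxc13, those at peaks 5 and 8 pointed towards Hoxc4, and that at peak 12, already past Hoxc4, pointed towards Smug1. The best stretch at peak 3, under the threshold, was on the forward strand, and that at peak 4 was on the reverse strand. The matches at peaks 2 and 5 thus pointed away from each other.

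In the whole window, bound or not, the matrix matched 14 stretches, of which 4 lay within 100 bp of an optimal summit, against 20.6% of matches over the genome. Of the other 10, 6 lay in soft-masked sequence, which marks interspersed and simple repeats. Outside soft-masked sequence 4 of 8 HoxC matches had a summit, and the share over the genome was 32.8%. None of the 14 passed the stricter score, which 6.91% of matches over the genome passed, and of those 78.9% had a summit. The 4 matches with a summit scored 13.03 to 16.13, and the 10 without scored 12.75 to 15.80, so the scores of both groups overlapped.

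Among the matches without a summit, the one at chr15:102985720-102985738 on the reverse strand, between Hoxc9 and Hoxc8, scored 15.30. It lay under the pooled peak with its summit at 102985724 that the optimal list leaves out. Within 100 bp of this match, the highest summit ranked 71167 in replicate 1 and 138387 in replicate 2. The overlapping replicate 2 peak of rank 74720 therefore had its summit farther away. A forward match at chr15:102969141-102969159, in introns of Hoxc10 and of the long Hoxc5 transcript, scored 15.70 and had a summit within 100 bp in the list of replicate 1 only, at rank 150234. The soft-masked match at chr15:103073442-103073460, which scored 14.81, lay inside the interval of peak 11 but 152 bp from its summit. Of the 10 matches, 3 had the summit of a pooled relaxed peak, at any rank, within 100 bp. The pooled ranks there were 64376, 117082 and 149175. The share over the genome for matches without an optimal summit was not computed, so whether 3 of 10 is many or few is unknown.

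**Figure D5:**
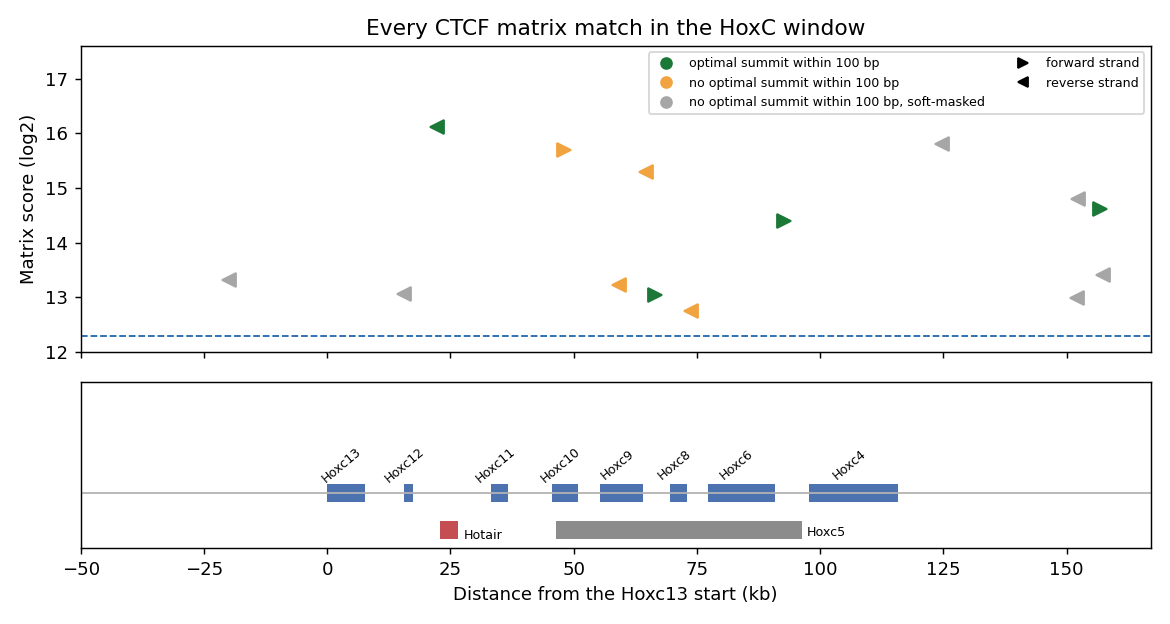
Matrix score (y axis, log2) of each of the 14 motif matches in the window against distance from the Hoxc13 start in kb (x axis), with genes to scale below; triangles give the strand and colours whether an optimal summit lay within 100 bp and whether the match is soft-masked. The 4 matches with a summit score 13.03 to 16.13 and the 10 without score 12.75 to 15.80.

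Base composition varied among the sites. Within 301 bp centred on the summit, GC content was 41.5% to 65.8% with a median of 51.0%, and the median over all optimal peaks was 47.8%. It was highest at peak 6, at the Hoxc8 promoter, and lowest at peak 11. The median ratio of observed to expected CpG was 0.398 in HoxC and 0.221 over all optimal peaks. No HoxC summit lay in soft-masked sequence, and 22.0% of all optimal summits did. Soft-masked bases made up 20.1% of the window and 15.9% of the cluster itself, against 32.6% of chromosome 15.

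By the same window rule, the HoxC window had 5.56 peaks per 100 kb, and the values were 7.59 for HoxA (Hoxa4 to Hoxa13), 10.2 for HoxB and 6.60 for HoxD. The HoxC median percentile of 30.4 stood beside 77.7 in HoxA, 40.4 in HoxB and 63.9 in HoxD. Peaks above percentile 80 numbered 3 of 12 in HoxC, 5 of 13 in HoxA, 8 of 28 in HoxB and 4 of 13 in HoxD. Matches were found at 4 of 12 HoxC peaks, 4 of 13 in HoxA, 15 of 28 in HoxB and 3 of 13 in HoxD. HoxC thus had the fewest peaks per length and the lowest median of the 4 windows, and none of these differences was tested.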

How the data were processed

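CTCF chromatin immunoprecipitation was measured in 2 libraries of 1 group. The authors deposited 5 peak lists on mm10, per the notes beside the files: 1 per library, 1 pooled, 1 conservative and 1 optimal. The last 2 are labelled as thresholded for reproducibility. The optimal list does not require a peak in both libraries, since peak 9 had no overlapping peak in the list of replicate 1. Per those notes, every list drew on 1 further alignment file. For the aligner, the peak caller and the reproducibility cut-off, names and values were not given in the sources used here. The deposited signal value has a scale of its own in each list, and only its order within the list was used. The deposited −log10 q-value has 1 highest value shared by 60069 optimal peaks and ranked nothing. The deposited summit offset, in bases from the peak start, placed each summit.

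Peaks were taken by summit in the HoxC window and joined to GENCODE M21 genes and the GRCm38.p6 sequence, whose chromosome lengths held every peak on the 20 chromosomes used (1 to 19 and X, with 65470 optimal peaks). TSSs numbered 93145 over protein-coding genes. The upper set of a library, with 65482 peaks, stood for that library alone, and sharing meant an overlap of at least 1 bp. The CTCF matrix was learned in 6 rounds from optimal peaks on odd-numbered chromosomes other than 15, with soft-masked bases left out and base frequencies mixed with 2% of equal frequencies. This mixing replaced a pseudocount of 1 site after values had been seen, when single rare bases were found to carry very large penalties under it. Control positions came from windows 2000 bp away. The motif search was run on simulated sequence with planted sites that had 1 dominant base at every position, an easier setting than these data. That run does not bear on calls near the threshold. Python 3.11.15, numpy 2.4.6, pandas 2.3.3, numba 0.67.0 and matplotlib 3.10.9 were used.

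The 9 genes and the lists were chosen with earlier results of these data known. All 9 genes and every optimal peak in the window are described, non-coding and flanking genes are named as landmarks, and other Hox clusters enter as counts and medians. With 1 group, no comparison was tested. Alternatives were another peak list, each library alone, promoter width, the matrix, the threshold and the search width.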

Additional observations from a re-analysis of the deposited data

How the results depend on the processing

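No paired analysis was possible because there is only 1 group. The 12 HoxC peaks became 7 in the conservative list and 4 in the 50% of the optimal list with the highest signal; with 1 library left out there were 9 to 10, and in the pooled list 11. The 4 genes with a promoter peak became 2, Hoxc5 and Hoxc10, in both of those shorter lists, 5 with promoters of 2500 bp and 4 with 500 bp or gene 5′ ends only. The count was 3 to 3 with 1 library left out: without replicate 1 Hoxc13 had none, and without replicate 2 Hoxc8 had none. The median percentile of 30.4 was 54.7 in the conservative list and 38.3 to 46.6 with 1 library left out, in lists that hold other peaks. The 4 peaks with a match became 1 with the matrix learned from all sequence, under which the share of all optimal peaks also fell, to 39.2% against 67.5% (the cause was not tested), and 0 at the stricter score, which also left 0 matches under a peak and which by its construction passes fewer positions. With either library left out, in the conservative list, within 50 bp of the summit, or with a pseudocount of 1 site in the matrix, an alternative chosen after seeing the data, the count stayed at 4, and within 200 bp it was 5. The 7 peaks in the upper set of both libraries were 7 with an overlap of at least 50%. Of the single-peak percentiles, 10 moved by more than the spread between libraries, or had none, and 20 did not. Depth is unknown, so absence from a list says only that no peak was listed.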
